A study of Mus musculus with 9 samples.

Results

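The SOCS, Cish and PIM genes are transcriptional outputs of cytokine signalling that act back on it. Here they comprise Socs1, Socs2, Socs3, Cish, Pim1, Pim2 and Pim3, listed in capitals in a deposited table of 23415 genes (SOCS1, SOCS2, SOCS3, CISH, PIM1, PIM2 and PIM3) and chosen by these symbols, and all 7 were found and passed the filter on low values. They were read in CD4+ T cells sorted from the inflamed colon lamina propria of Rag1-/- mice, which lack their own T and B cells, at the peak of T cell transfer colitis. The recipients had been injected with naive CD4+ CD25- CD45RBhigh T cells from CD160 knockout donors (4 libraries) or from wildtype littermates (5 libraries, called controls), so recipient genotype, transfer and disease were common to both groups. The labels state neither the age of the mice nor the way the Cd160 gene was disrupted, and they do not say whether each library came from its own recipient, so the spread behind the p-values may be technical. CD160 is a lymphocyte receptor for the TNF receptor family member HVEM.

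Cytokines that bind receptors linked to Janus kinases cause STAT transcription factors to enter the nucleus, and STATs switch on SOCS and Cish genes within hours. The SOCS and CIS proteins carry an SH2 domain that docks on receptors or kinases and a SOCS box that recruits a ubiquitin ligase, and they thereby limit the signal that induced them. PIM kinases are serine/threonine kinases without a regulatory domain, so that their activity follows their abundance, and they promote survival, translation and growth. In T cells, SOCS3 limits signalling through gp130-type receptors and the IL-23 receptor, SOCS1 limits interferon and common gamma chain signals, and CIS is induced by IL-2 through STAT5.

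Promoter sequence is shown for 3 members, the only ones with a window that held a motif described below. Their differences between the groups, given below, have unlike signs or sizes. Of the 7 genes, 6 had a 300-base window in the RefSeq table (GRCm38.p6), from 250 bases before to 50 after an annotated start, and Pim1 had 2 starts. Capitals mark TTCNNNGAA, the palindromic STAT element, in Cish and Socs3, and an element bound by interferon regulatory factors (GAAA, any 2 bases, then GAAA) in Socs1. The first of these reads alike on both strands, and the second, chosen after the Socs1 sequence was seen, was searched on both strands.
Cish, chr9:107296409-107296708, plus strand: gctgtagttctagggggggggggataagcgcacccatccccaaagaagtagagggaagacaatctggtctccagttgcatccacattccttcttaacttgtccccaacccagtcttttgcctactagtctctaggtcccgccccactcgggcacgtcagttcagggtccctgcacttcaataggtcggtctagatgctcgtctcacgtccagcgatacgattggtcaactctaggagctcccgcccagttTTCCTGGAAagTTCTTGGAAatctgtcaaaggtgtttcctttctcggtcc
Socs3, chr11:117969317-117969616, minus strand: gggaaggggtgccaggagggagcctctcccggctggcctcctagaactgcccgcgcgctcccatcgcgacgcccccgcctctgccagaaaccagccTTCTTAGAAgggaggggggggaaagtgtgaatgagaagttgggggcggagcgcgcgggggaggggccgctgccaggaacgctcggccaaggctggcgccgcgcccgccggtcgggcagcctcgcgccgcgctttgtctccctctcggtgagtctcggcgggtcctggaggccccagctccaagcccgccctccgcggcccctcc
Socs1, chr16:10785487-10785786, minus strand: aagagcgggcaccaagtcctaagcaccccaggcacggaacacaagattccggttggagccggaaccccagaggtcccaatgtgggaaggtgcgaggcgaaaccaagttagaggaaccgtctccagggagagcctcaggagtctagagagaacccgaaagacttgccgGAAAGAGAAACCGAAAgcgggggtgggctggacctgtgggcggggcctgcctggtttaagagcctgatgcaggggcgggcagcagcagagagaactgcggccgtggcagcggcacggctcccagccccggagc

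Cish held 2 matches to TTCNNNGAA, at bases 1 to 9 and 12 to 20 counted from the annotated start, and Socs3 held 1, at bases -154 to -146. The Socs3 window belongs to a start inside the annotated gene, which extends to base 117970336. Among all 32851 promoter windows of the table, 8.3% held TTCNNNGAA. Socs1 held 2 overlapping matches to the interferon regulatory factor element, between bases -83 and -68, and 3.44% of all windows held that motif. The windows of Pim1, Pim2 and Pim3 held neither string. A match is a string of letters, and no binding was measured here.

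Of the 9 libraries, control replicate 1 stood apart. The 7 genes are therefore given with and without it, and genes of other lists come from the 8 libraries without it unless all 9 are named. It had 7308 genes at 1 TPM or more (relative transcript abundance corrected for transcript length and library total), whereas the 8 others had 11088 to 11711. Across the tested genes its level was a median 0.116 times the median of control libraries 2 to 5. TPM keeps no depth, so the counting error behind each value is unknown. Cd160 itself, the check of the labels, stood at 5.44 to 18.8 TPM in the knockout libraries and at 31.8 to 212.4 TPM in the 5 controls, with no overlap. The deleted stretch of Cd160 is not given in the labels.

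Socs3 had the smallest p of the 7 genes, with all knockout libraries above all control libraries. It lies on chromosome 11, from 117966079 to 117970336 (GRCm38.p6). Its level was 171.3, 137.1, 159.5 and 208.8 TPM in knockout libraries 1 to 4. Control libraries 1 to 5 stood at 1.55, 115.5, 60.5, 113.2 and 76.7 TPM. The lowest knockout library thus lay above the highest control library, and 3.88% of the 11495 tested genes likewise had all knockout libraries above all controls. Without control replicate 1 that share was 4.01%.

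Socs3 averaged 169.2 ± 30 TPM in the knockouts, compared with 91.5 ± 27.3 TPM in control libraries 2 to 5 (SD, n = 4 each), a ratio of 1.85. The difference of log2(TPM + 1), knockout minus control, was 0.91 (standard error 0.22), with a 95% interval from 0.41 to 1.41 in the fit without control replicate 1. In limma this gave an unadjusted p of 0.0026, ranked 185 of 11495 genes, and an adjusted p of 0.158, so Socs3 did not pass the threshold of 0.05 adjusted over all genes. With all 9 libraries the difference was 1.94 (standard error 1), with an adjusted p of 0.745. Exact two-sided permutation gave p = 0.0286 without control replicate 1, the smallest its 70 splits allow, and p = 0.0397 with all 9 libraries. These exact p-values are unadjusted, and 7 members were tested.

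Socs1, the inhibitor of Janus kinases that restrains interferon gamma signalling, also had a higher mean in knockout libraries, but the groups overlapped. It lies on chromosome 16, from 10783808 to 10785536. Knockout libraries 1 to 4 were close together at 45.4, 54.3, 47.4 and 48.5 TPM, a mean of 48.9 ± 3.8 TPM (SD, n = 4). Control libraries 1 to 5 were spread over 2.3, 18.9, 35.8, 51.6 and 28.9 TPM. Control replicate 4 lay above 3 of the 4 knockout libraries and the other controls lay below all of them. Without control replicate 1 the difference was 0.60 (standard error 0.26), with an unadjusted limma p of 0.0437 and an adjusted p of 0.371. The exact permutation p was 0.114 in those 8 libraries and 0.103 in all 9, where the difference was 1.27 with an adjusted limma p of 0.745.

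Cish and Socs2, which in many cell types are induced by STAT5, had no difference beyond the replicate spread that held over both sets of libraries. Cish, on chromosome 9 from 107296659 to 107302784, stood at 159.5, 220.6, 155.8 and 126.8 TPM in knockout libraries 1 to 4. Control libraries 1 to 5 stood at 14.2, 182.8, 238.5, 209.2 and 195.9 TPM. Of the 4 knockout libraries, 3 lay below control libraries 2 to 5, while knockout replicate 2 lay within their range. The difference was -0.34 without control replicate 1, with an interval from -0.70 to 0.03 and an adjusted limma p of 0.428. With that library the difference was 0.41, of the opposite sign, with an interval from -1.24 to 2.07 and an adjusted p of 0.766.

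Socs2, a brake on growth hormone signalling that lies on chromosome 10 from 95383903 to 95417321, averaged 40.5 ± 11.1 TPM (SD, n = 4) in knockout libraries. It averaged 45.4 ± 10.9 TPM (SD, n = 4) in control libraries 2 to 5. Its knockout values were 35.4, 55.4, 41.8 and 29.5 TPM and its control values, replicates 1 to 5, were 4.97, 45, 37.6, 61.1 and 38.1 TPM. The ranges lay largely over each other. The log2 difference was -0.17 with an interval from -0.66 to 0.32 without control replicate 1, and 0.41 with all 9 libraries, where the interval ran from -1.02 to 1.85.

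**Figure D1:**
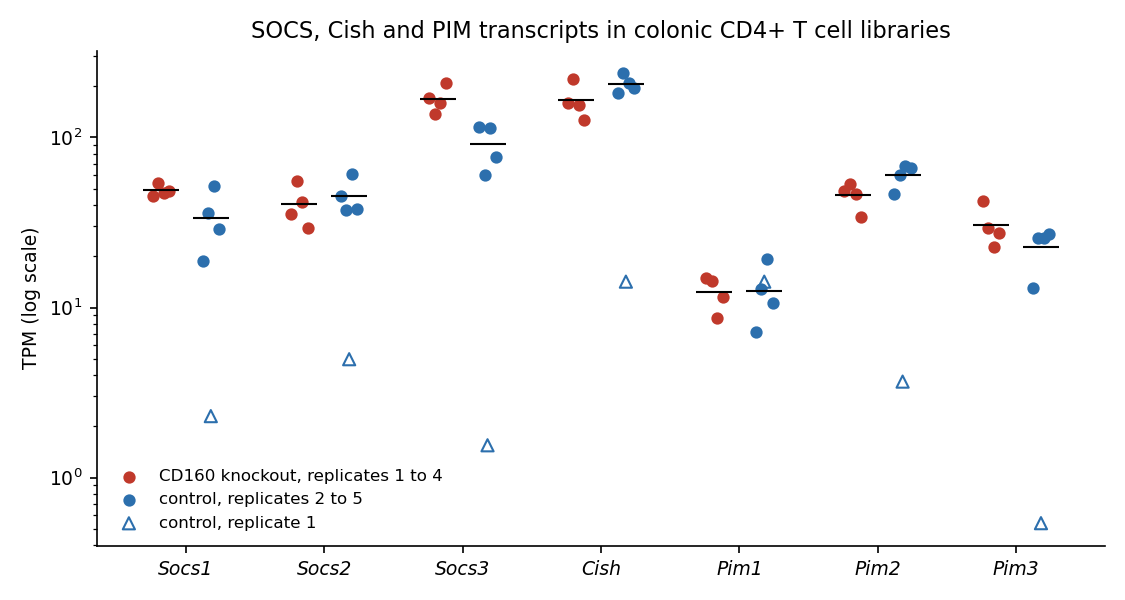
Level of each gene in TPM, on a log axis, in every library: red points are the 4 CD160 knockout libraries, blue points control libraries 2 to 5, open triangles control replicate 1, and bars the means of the filled points. The red Socs3 points, from 137.1 to 208.8 TPM, lie above all blue ones, and the triangle lies far below the blue points for every gene except Pim1.

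The 3 PIM genes had differences of unlike sign and size, none past the adjusted threshold. Pim2, a kinase that sustains survival and cap-dependent translation in lymphocytes, lies on chromosome X from 7878306 to 7883432 and had lower values in knockout libraries. It stood at 48.2, 53.6, 46.7 and 34 TPM in knockout libraries 1 to 4, and at 3.67, 46.6, 60.4, 68.4 and 66.3 TPM in control libraries 1 to 5. Control libraries 3 to 5 lay above every knockout library, control replicate 2 lay within the knockout range, and control replicate 1 lay below it. The difference without control replicate 1 was -0.40 (standard error 0.17), with an unadjusted limma p of 0.0406 and an adjusted p of 0.361. With all 9 libraries it was 0.34 with an adjusted p of 0.8.

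Pim3, on chromosome 15 from 88862194 to 88865726, is a closely related kinase and had the higher mean in knockout libraries. Its values were 42.5, 29.3, 22.7 and 27.3 TPM in knockout libraries 1 to 4, against 0.54, 13.1, 25.5, 25.6 and 27 TPM in control libraries 1 to 5. Knockout replicate 3 lay below 3 of the controls, so the groups overlapped. The difference was 0.42 with an interval from -0.17 to 1.01 and an adjusted limma p of 0.564 without control replicate 1. In all 9 libraries it was 1.2, at an adjusted p of 0.745.

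Pim1, the founding member of the family and a STAT3 and STAT5 target in many cell types, was the least abundant of the 7 and had the smallest difference. It lies on chromosome 17 from 29490785 to 29496111. Its knockout values were 14.9, 14.4, 8.69 and 11.5 TPM, and control libraries 1 to 5 stood at 14.2, 7.22, 12.8, 19.4 and 10.7 TPM. The control range enclosed the knockout range. The log2 difference was 0.03 without control replicate 1, with an interval from -0.60 to 0.67, and -0.02 with all 9 libraries, with adjusted limma p-values of 0.978 and 0.982.

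Over the 7 genes, 0 passed the limma threshold adjusted over all genes, in either set of libraries, and 0.0174% of all tested genes passed it with 9 libraries and 0.0261% with 8. Cd160, the disrupted gene, did not pass it either. At an unadjusted p under 0.05, 0 of 7 stood out with all 9 libraries, against 6.39% of all tested genes. Without control replicate 1, 3 of 7 did so: Socs1 and Socs3 with higher values in knockouts, as for 8.42% of all tested genes, and Pim2 with lower values, as for 4.39%. The median difference of the 7 genes was 0.03 in those 8 libraries, compared with -0.013 over all tested genes. With all 9 libraries the medians were 0.41 and 0.456. In that set 9961 of the 11495 tested genes had a positive difference, where 5468 did without control replicate 1. The medians of gene lists below are to be read beside these medians of all tested genes.

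**Figure D2:**
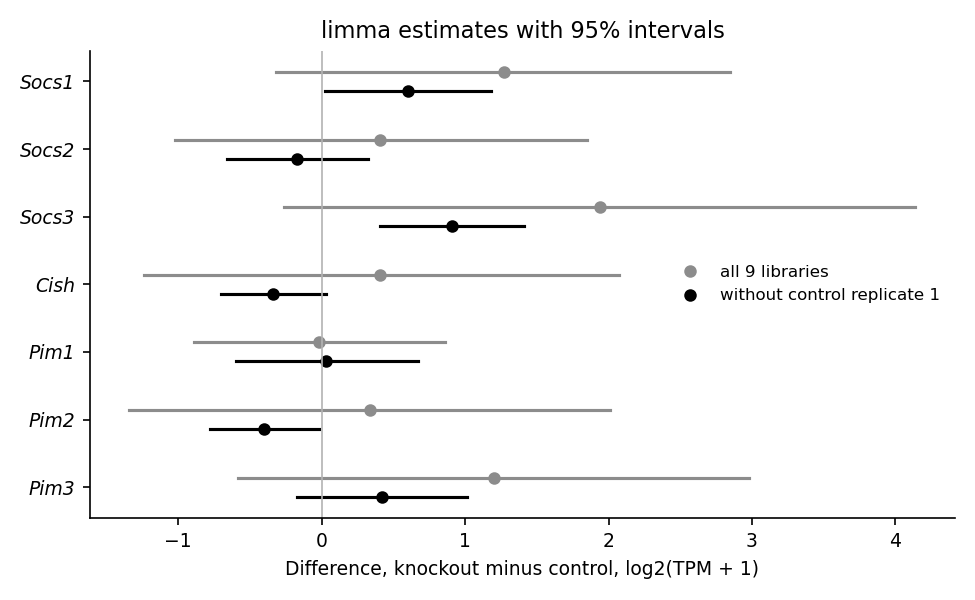
Differences of log2(TPM + 1), knockout minus control, of the 7 genes with 95% intervals from limma, in all 9 libraries (grey) and without control replicate 1 (black). With 8 libraries the intervals of Socs1 and Socs3 lie above 0, that of Pim2 lies below 0 and the other 4 include 0, while all 7 grey intervals include 0.

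The order of the levels differed between the groups at its top. In control libraries 2 to 5, Cish was the most abundant of the 7 at 206.6 TPM, with every library above the highest Socs3 value. Socs3 followed at 91.5 TPM, then Pim2 at 60.4, Socs2 at 45.4, Socs1 at 33.8, Pim3 at 22.8 and Pim1 at 12.5 TPM, and from Socs3 downward each gene overlapped with its next neighbour. In knockout libraries Socs3 and Cish were level, at 169.2 and 165.7 TPM with overlapping ranges, and both lay above all the others. Socs1, Pim2, Socs2 and Pim3 came next at 48.9, 45.6, 40.5 and 30.5 TPM, each overlapping with its neighbour, and Pim1 was lowest at 12.4 TPM without overlap. The summed level of the 7 genes was 482.6 to 564.6 TPM in knockout libraries and 429.1 to 548.4 TPM in control libraries 2 to 5. Socs3 made up 24.3% to 42.9% of that sum in knockout libraries and 12.8% to 26.9% in those controls.

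Ratios between members within a library compare the genes without reference to the library total. Of the 21 pairs, 5 had ratios that did not overlap between knockout and control libraries, with or without control replicate 1. Over all pairs of tested genes above 0 TPM in every library, 5.35% of ratios did not overlap with 9 libraries and 7.68% without control replicate 1. Among the 5 pairs the ratio of Socs1 to Pim2 ran from 0.942 to 1.43 in knockout libraries and from 0.406 to 0.755 in control libraries 2 to 5, with 0.627 in control replicate 1. The ratio of Socs3 to Pim2 was 2.56 to 6.15 against 1 to 2.48, and 0.422 in control replicate 1. Pim2 over Pim3 was 1.13 to 2.05 in knockout libraries and 2.37 to 3.55 in control libraries 2 to 5. The other pairs were Socs1 with Socs2 and Socs1 with Pim1, both with higher ratios in the knockouts. By contrast, Cish over Pim2 stayed between 2.96 and 4.12 in all 9 libraries, at 3.88 in control replicate 1. The pairs share members, were singled out after the values were seen, and were not tested.

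**Figure D3:**
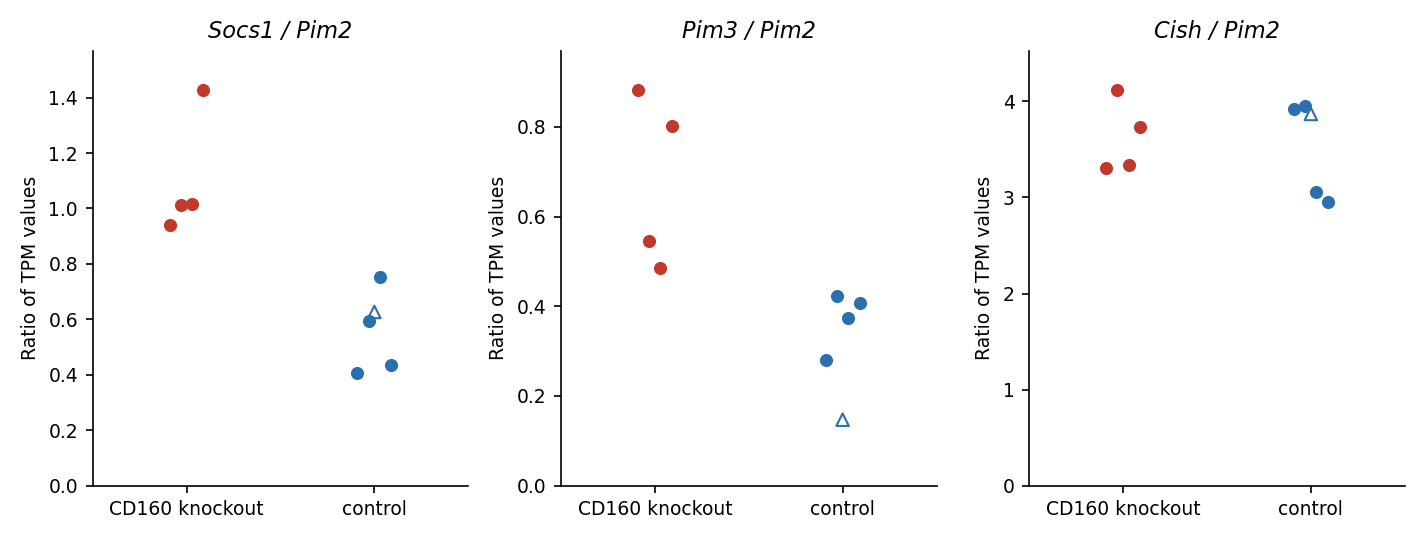
Ratios of TPM values within each library for Socs1 to Pim2, Pim3 to Pim2 and Cish to Pim2, with knockout libraries in red, control libraries 2 to 5 in blue and control replicate 1 as an open triangle. Socs1 to Pim2 is at least 0.942 in every knockout library and at most 0.755 in every control library, whereas Cish to Pim2 lies between 2.96 and 4.12 throughout.

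In control replicate 1, Pim1 was placed unlike the other members. Its 14.2 TPM there was 1.21 times the median of control libraries 2 to 5, and 94% of the tested genes had a lower ratio. Socs3 and Pim3 were at 0.0163 and 0.0212 times that median, where 4.37% and 6.14% of the tested genes had lower ratios. Socs1, Socs2, Cish and Pim2 were at 0.0711, 0.12, 0.0703 and 0.058 times, nearer to the 0.116 of the median tested gene.

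Genes of other cells are given beside the members. Macrophages and other myeloid cells also transcribe Socs3, and in bulk libraries fewer cells of a type cannot be told apart from less RNA per cell. All 15 macrophage and monocyte markers had a higher mean in knockout libraries than in control libraries 2 to 5, and none was at 0 in any library. Their summed level was 14147.4, 17696.5, 30849.3 and 31867.9 TPM in knockout libraries 1 to 4. It was 1669.7, 19537, 5314.2, 11772.1 and 4893 TPM in control libraries 1 to 5. Control libraries 3 and 5, the lowest of the other 8 libraries for these markers, were also the lowest of the 8 for Socs3. Knockout replicate 4 was the highest for both. Between these the orders differed, with knockout libraries 1 and 2 below control replicate 2 for the marker sum and above it for Socs3. The Pearson correlation (r) of Socs3 with this sum, both as log2(TPM + 1), was 0.89 over the 8 libraries. Within the 4 knockout libraries it was 0.46. Socs3 also had r of 0.91 with the sum of the dendritic cell markers described below, and 0.58 within the knockout libraries. With stromal and endothelial, neutrophil, B cell and epithelial markers r was 0.64, 0.60, 0.49 and 0.15 over the 8 libraries. Within the knockout libraries these were 0.28, -0.22, -0.03 and 0.52. With CD8 and NK markers r was -0.71 over the 8 libraries and 0.93 within the knockouts. The part of any of these cells in the Socs3 difference was not tested.

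The most abundant of these markers were Apoe, a lipid carrier, Lyz2, a myeloid lysozyme, and C1qb, a complement subunit, with differences of 0.97, 1.53 and 1.22 without control replicate 1 and adjusted limma p-values of 0.609, 0.196 and 0.339. These differences were 1.58, 1.95 and 1.58 with all 9 libraries. Dendritic cell and antigen presentation genes, 10 in all, summed to between 12987.2 and 21426.6 TPM in knockout libraries and between 4078.4 and 15567 TPM in control libraries 2 to 5. Their sum was carried by the class II genes H2-Ab1, H2-Aa and H2-Eb1, with differences of 1.23, 1.24 and 1.16 (1.78, 1.57 and 1.54 with all 9 libraries), and Flt3 and Cd209a were at 0 in at least 1 library. Of the 10 genes, 9 had a higher mean in knockout libraries than in control libraries 2 to 5.

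The markers of the CD4 T cell list are set beside Cish and Pim2. The libraries are labelled as sorted CD4+ T cells. The 9 markers of the list were Cd3d, Cd3e, Cd3g, Cd4, Trac, Cd2, Cd5, Lck and Cd28. They were above 0 in every library, as were the 15 macrophage and monocyte markers. All but Cd4 are shared with CD8 T cells, so their sum is not particular to CD4 T cells. Cd8a stood at 3.92 to 23.9 TPM in knockout libraries and at 3.06 to 86.1 TPM in control libraries 2 to 5. The sum of the 9 markers was 4979.1, 5936.9, 4978.7 and 4568.5 TPM in knockout libraries 1 to 4. In control libraries 1 to 5 it was 1896.8, 5481, 6222.6, 6096.2 and 6539.6 TPM. Knockout replicate 2 had the highest sum of its group and also the highest Cish and Pim2 levels of its group, at 220.6 and 53.6 TPM. Knockout replicate 4 had the lowest of all 3 in its group. Without control replicate 1, r with the T cell sum was 0.91 for Cish, 0.92 for Pim2 and -0.87 for Socs3. Within the 4 knockout libraries r was 1.0, 0.85 and -0.94. Of the 9 markers, 1 had a higher mean in the knockout libraries than in control libraries 2 to 5. Cd3g, Lck and Trac, the most abundant, had differences of -0.36, -0.26 and -0.21 without control replicate 1, beside the -0.34 of Cish and the -0.40 of Pim2, with adjusted limma p-values of 0.119, 0.39 and 0.525. In all 9 libraries the differences were -0.10, 0.31 and 0.28, beside 0.41 and 0.34 for Cish and Pim2. The macrophage and monocyte sum exceeded the T cell sum in all 4 knockout libraries and in control libraries 2 and 4, though the lists differ in their number of genes. The part of the T cell share in these differences was not tested.

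**Figure D4:**
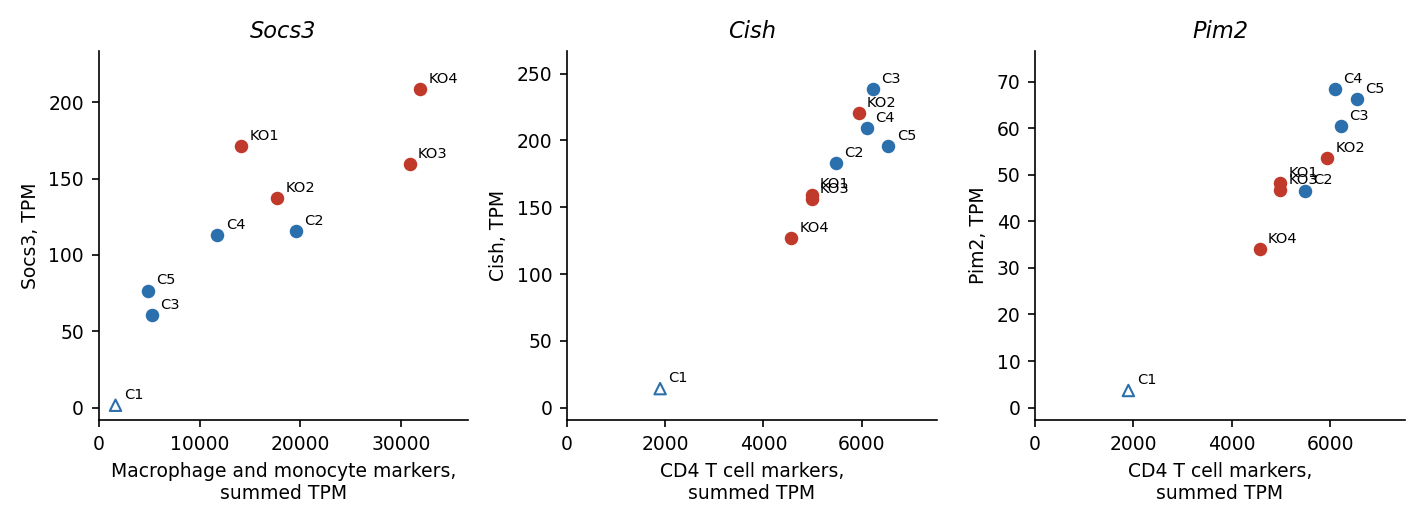
Socs3 against the summed TPM of 15 macrophage and monocyte markers, and Cish and Pim2 against the summed TPM of the 9 markers of the CD4 T cell list, with each library as a point labelled KO (knockout, red) or C (control, blue) and its replicate number. Control libraries 3 and 5 are lowest among the filled points for both Socs3 and the macrophage sum, and knockout replicate 4 is lowest among the filled points for Cish, Pim2 and the T cell sum.

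The marker lists of other cell types had lower summed TPM. The lists differ in their number of genes, so these sums do not measure the share of the cells. Means were higher in knockout libraries than in control libraries 2 to 5 for 7 of 8 neutrophil and 8 of 9 epithelial markers. The same held for 6 of 8 stromal and endothelial, 2 of 6 B cell and 2 of 6 CD8 and NK markers. Neutrophil markers summed to 43.2 to 165 TPM in knockout libraries and to 28 to 83.9 TPM in control libraries 2 to 5, but to 326.7 TPM in control replicate 1. S100a8, S100a9, Retnlg and Mmp8 were at 0 in at least 1 library. The leading neutrophil genes S100a8, Mmp9 and Cxcr2 had differences of 0.36, 0.61 and -0.29, and of -0.90, 1.32 and -0.44 with all 9 libraries. Epithelial markers, led by Lgals4, Krt19 and Krt8, summed to 106.9 to 158.6 TPM in knockouts and 81.1 to 156.5 TPM in those controls, with Krt20 at 0 in at least 1 library. Stromal and endothelial markers, led by Dcn, Col3a1 and Pecam1, summed to 66.3 to 364.1 and 70.3 to 148 TPM, and Pdgfra, Cdh5 and Kdr were at 0 in at least 1 library. B cell markers reached at most 12.9 TPM, nearly all from Cd79b, with Cd79a and Jchain under 1 TPM and Ms4a1, Mzb1 and Pax5 at 0 in all libraries. Cd79a and Jchain were at 0 in at least 1. CD8 and NK markers, led by Cd8a, Klrb1b and Klrb1c, summed to 20.6 to 54.2 TPM in knockouts and 33.4 to 156.1 TPM in control libraries 2 to 5, and Ncr1 was at 0 in at least 1 library. The part of all these cells in the results for the 7 genes was not tested.

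For each member the tested protein genes with the most similar pattern were found by Pearson correlation of log2(TPM + 1) over the 8 libraries without control replicate 1, among 10357 candidates. Closest to Socs3 were Hk3, a hexokinase, Nupr1, a stress-induced nuclear protein, and Ifi204, an interferon-inducible DNA-binding protein, at r = 0.993, 0.991 and 0.983. Hk3 averaged 29.7 TPM in knockout libraries and 11.4 TPM in control libraries 2 to 5. In these 8 libraries Hk3, Nupr1 and Ifi204 had log2 differences of 1.39, 1.43 and 1.52. The macrophage and monocyte markers Apoe, Lyz2 and C1qb had 0.97, 1.53 and 1.22, and which cells gave the transcripts was not tested. Closest to Socs1 were Gramd4, Tbc1d14 and Tusc2 at 0.973, 0.967 and 0.959, and closest to Socs2 were Sit1, an adaptor of T cell receptor signalling, Ddx28 and Cd40lg, the T cell ligand of CD40, at 0.976, 0.963 and 0.958. Among the closest to Cish were Trim21 and Gtf2h3 at 0.978 and 0.971. Pim1 had Mef2d, Fbrs and Rapgef4 at 0.939, 0.931 and 0.924, Pim2 had Tbc1d10b, Ppp2r5a and Cdyl at 0.967, 0.951 and 0.944, and Pim3 had Ikbke, a kinase of the innate response, Srm and Relb, an NF-kappa-B subunit, at 0.983, 0.962 and 0.957. The genes were picked for a high r among many, so these values carry no test.

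The remaining SOCS genes were expressed at low levels. Socs6 averaged 10.8 ± 1.2 TPM in knockouts and 9.33 ± 1.23 TPM in control libraries 2 to 5 (SD, n = 4 each), and Socs4 averaged 6.4 ± 1.64 and 5.08 ± 1.55 TPM. Socs7 and Socs5 stood at 2.58 and 1.27 TPM in knockouts and at 2.88 and 1.45 TPM in those controls. Without control replicate 1 the differences of Socs6, Socs4, Socs7 and Socs5, at 0.19, 0.29, -0.11 and -0.14, had adjusted limma p-values from 0.635 to 0.837. They were 0.83, 0.75, 0.15 and 0.10 when all 9 were used, so Socs7 and Socs5 changed sign. The 6 partners through which the SOCS box recruits its ubiquitin ligase had a median difference of -0.04, with Tceb2 and Tceb1, which encode Elongin B and C, at -0.11 and -0.18 and the ring proteins Rnf7 and Rbx1 at 0.11 and -0.09. The median was 0.22 in all 9 libraries, where the differences of these genes were -0.44, 0.05, 0.40 and -0.28. Of all 4 and 6 genes, 0 passed an unadjusted p under 0.05 in either direction, with 8 or 9 libraries.

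Among 15 other brakes on JAK-STAT signalling, 3 had higher values in knockouts at an unadjusted limma p under 0.05 without control replicate 1 and 0 had lower ones, and the median was 0.03. That is 3 of 15 genes where 8.42% of all tested genes were higher and 4.39% lower. When all 9 libraries were used, 2 were higher and 0 lower, where 5.78% of all tested genes were higher. The median was then 0.62, beside 0.456 for all tested genes. Usp18, which restrains type I interferon receptors, resembled Socs3 in that every knockout library, from 8.11 to 9.46 TPM, lay above every control, the highest of which was 7 TPM. That held for 3.88% of all tested genes. The Usp18 difference was 0.92 (standard error 0.26), with an adjusted limma p of 0.188. Ptpn6, the phosphatase SHP-1, and Spred1, an inhibitor of Ras signalling, had differences of 0.22 and 0.57, and Ptpn2, a phosphatase of Janus kinases and STATs, had -0.18, all with adjusted limma p-values of 0.328 or more. The log2 differences of Usp18, Ptpn6, Spred1 and Ptpn2 were 1.31, 1.1, 0.73 and 0.28 in all 9 libraries, so the sign of Ptpn2 turned.

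Over 10 genes for Janus kinases and STATs, which drive these genes, the median difference was 0.14, with 1 higher and 0 lower at an unadjusted limma p under 0.05 without control replicate 1, where the shares of all tested genes were 8.42% and 4.39%. The median was 0.81 in all 9 libraries, beside 0.456 for all tested genes, and 0 passed in either direction. Stat5a, the factor downstream of IL-2 and IL-7, averaged 25.4 ± 2.6 TPM in knockouts and 19.8 ± 2.99 TPM in control libraries 2 to 5 (SD, n = 4 each). Its difference was 0.35 with an adjusted limma p of 0.328, and the knockout libraries lay above all controls, as for 3.88% of all tested genes. Stat2, Stat6 and Stat3 had differences of 0.25, 0.19 and 0.21. Those of Stat5a, Stat2, Stat6 and Stat3 were 0.93, 0.75, 1.09 and 1.02 in all 9 libraries.

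Receptor chains, 18 genes with a median of 0.19, included 5 higher and 0 lower at that threshold in the 8 libraries, where 8.42% of all tested genes were higher and 4.39% lower, and 0 passed after adjustment. In all 9 libraries 3 were higher and 0 lower, against 5.78% of all tested genes higher. The median was then 0.80, beside 0.456 for all tested genes. Il10ra, the IL-10 receptor chain, stood at 72.4, 85.1, 94.7 and 86.6 TPM in knockout libraries 1 to 4 and at 1.74, 56.5, 32.8, 54.8 and 37.2 TPM in control libraries 1 to 5. Its difference was 0.92 (standard error 0.18), with an adjusted limma p of 0.12. Ifngr2, Il6ra and Il4ra, chains of the receptors for interferon gamma, IL-6 and IL-4, had differences of 1.36, 1.28 and 0.61, with adjusted limma p-values of 0.175, 0.172 and 0.158. Their knockout libraries lay above all controls, as for 3.88% of all tested genes, and the named chains were picked by small p. In the fit of all 9 libraries the differences of Il10ra, Ifngr2, Il6ra and Il4ra were 1.73, 1.81, 1.58 and 1.24. Myeloid cells also express these 4 chains, and the macrophage sums given above moved the same way, a link that was not tested.

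Of 16 cytokine genes, 10 were tested, and Il6, Il7, Il12a, Il23a, Lif and Csf2 did not pass the filter on low values. Il4 had the lower values in knockouts, 2.72 ± 1.56 TPM against 10.5 ± 6.39 TPM in control libraries 2 to 5 (SD, n = 4 each), with a difference of -1.55 and an adjusted limma p of 0.196, but control replicate 1 lay at 0.86 TPM, below every knockout library. Il27, Osm and Ifng had differences of 0.97, 0.95 and -0.44 with adjusted p-values of 0.415, 0.419 and 0.573. Osm stood at 60.2 TPM in knockout replicate 1 but at 18.2, 11.3 and 19 TPM in knockout libraries 2 to 4. Control libraries 2 to 5 ran from 7.62 to 14.7 TPM for Osm. Differences of Il4, Il27, Osm and Ifng in all 9 libraries were -1.06, 1.16, 1.45 and -0.10. The median of the 10 genes was -0.08 with 8 libraries and 0.35 with 9.

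The lists of interferon and STAT target genes had medians from 0.07 to 0.61 without control replicate 1 and from 0.48 to 1.13 with all 9 libraries. In the list of 13 interferon targets, 10 were higher and 0 lower at an unadjusted limma p under 0.05 without control replicate 1, where 8.42% of all tested genes were higher, and the median was 0.61. None passed after adjustment, by which the lowest p was 0.144. Irf8 and Iigp1 had differences of 1.18 and 1.44, and Gbp3 and Gbp5, guanylate-binding proteins, had 0.61 and 0.76. With all 9 libraries 5 were higher at an unadjusted p under 0.05, where 5.78% of all tested genes were higher, and the median was 1.13 against 0.456 for all tested genes. The differences of Irf8, Iigp1, Gbp3 and Gbp5 were then 1.76, 1.88, 1.49 and 1.13. All 15 macrophage and monocyte markers had higher means in the same knockout libraries, and Lyz2 and H2-Ab1 differed by 1.53 and 1.23 with 8 libraries, a link to the interferon targets that was not tested. The 13 STAT5 targets had a median of 0.11 with 0 genes at that threshold in either direction, and Osm, Tnfrsf4, Ccnd2 and Gzmb had differences of 0.95, 0.45, -0.30 and -0.37. These were 1.45, 0.63, -0.01 and 0.48 in all 9 libraries, so the sign of Gzmb turned. Osm was far higher in knockout replicate 1 than in the other knockout libraries, as given above. Of 11 tested STAT3 targets, 1 was higher, Hif1a, the hypoxia-response factor, at 0.65, and Ccnd1, Mcl1 and Junb had 0.39, 0.13 and -0.21. In all 9 libraries 0 STAT3 targets passed, and Hif1a, Ccnd1, Mcl1 and Junb stood at 1.44, 0.58, 0.48 and 0.75, so the sign of Junb turned. Among 15 substrates and partners of PIM kinases, Cdkn1b, a cell cycle inhibitor, had a difference of -0.57 with an adjusted p of 0.387. Cdkn1a, Eif4ebp1 and Akt1s1 had 0.61, 0.57 and 0.32, and the list median was 0.15. The differences of Cdkn1b and these 3 genes were -0.24, 0.59, 0.73 and 0.78 in all 9 libraries, where the median was 0.37.

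**Figure D5:**
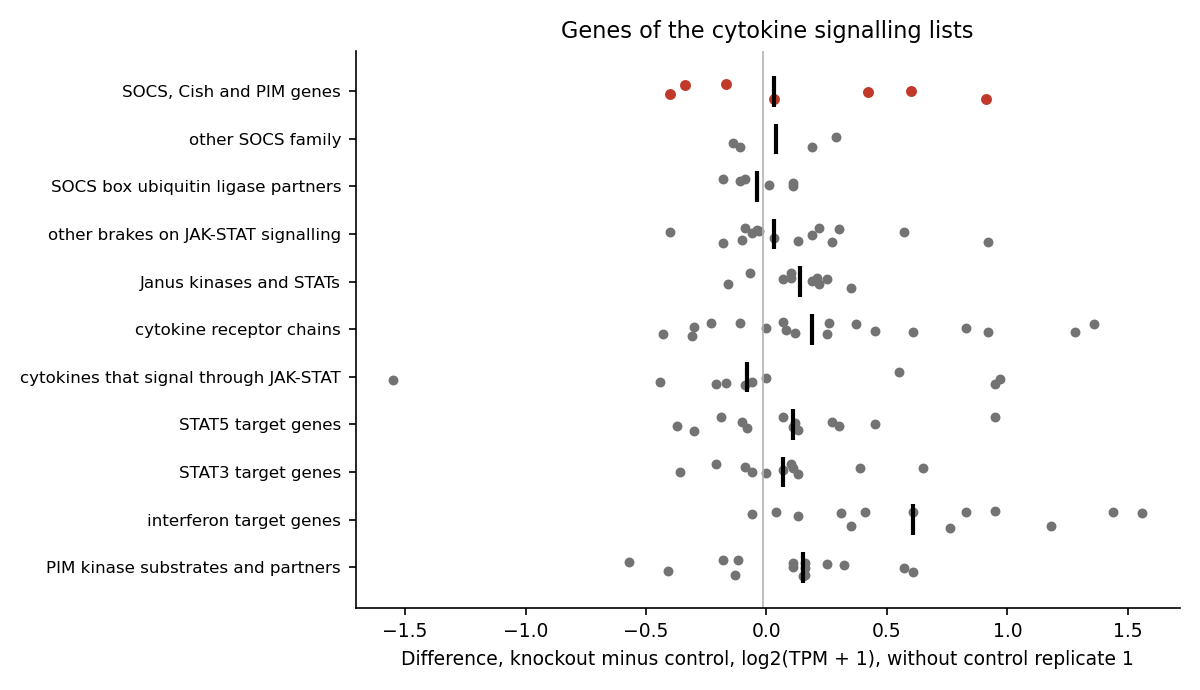
Differences of log2(TPM + 1) of single genes, knockout minus control, without control replicate 1, for the 7 SOCS, Cish and PIM genes (red) and the 10 lists of cytokine signalling genes (grey), with list medians as black bars and the median of all tested genes as a grey line. The 7 genes spread from -0.40 to 0.91 around a median of 0.03, and the interferon targets have a median of 0.61.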

How the data were processed

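The authors deposited TPM values, and every library sums to one common total. Trimmomatic 0.32, Bowtie2 2.2.9, RSEM 1.2.31 and GRCm38 are named per the submitters' processing notes, and their settings are not given in the sources used here. TPM keeps no depth, and abundant transcripts lower all other values of a library. Libraries were SMART-Seq2-type cDNA libraries of polyadenylated RNA, per the labels' protocols.

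Differences were computed with limma 3.58.1 in R 4.3.3 (empirical Bayes with a trend) from log2(TPM + 1). Genes had to reach 1 TPM in 4 or more libraries, which left 11495, with Benjamini-Hochberg adjustment over all of them and a threshold of 0.05, in all 9 libraries and without control replicate 1. This scale understates changes of low genes. The fit was tested on simulated data in which each gene was drawn alone. That test did not cover an outlying library or genes that move together. The members, gene lists and tests were chosen with earlier results of these data known. Members were also compared by exact two-sided permutation over the libraries, which with 4 and 5 libraries reaches 0.0159 at the smallest. Named beside the members were Cd160, up to 4 genes per signalling list by unadjusted p without control replicate 1, 3 abundant markers per cell list with any markers at 0, and 3 similar genes per member, while further pairs were chosen after their values were seen. Some genes of the lists are not reported here. Groups and replicate numbers came from the titles. Promoter sequences and coordinates came from RefSeq (GRCm38.p6). The alternatives were pseudocounts of 0.1 and 5, no filter, a filter of 5 TPM, median-of-ratios scaling, quantile normalization, robust variance estimation, the replicate number as a block, and leaving out each library. Python 3.11.15 with matplotlib 3.10.9 made the figures.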

Additional observations from a re-analysis of the deposited data

Results flagged for a closer look

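Cish in control replicate 1 stood at 14.2 TPM, while control libraries 2 to 5 lay between 182.8 and 238.5 TPM. The gap to the nearest control was 0.752 of the range of the group, which is above the 95% limit for 5 values. Of 14 such groups checked, 1 met this rule, and chance flags about 1 in 20. Low values in control replicate 1 were not particular to Cish. Cish stood there at 0.0703 times the median of control libraries 2 to 5, the median tested gene at 0.116 times. Of the tested genes, 32.1% had a lower ratio than Cish.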

How the results depend on the processing

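None of the 7 members passed the adjusted threshold under any alternative run, in either set of libraries. With 8 libraries the Socs3 difference lay between 0.73 and 1.04 over the alternatives, with unadjusted limma p-values from 0.0016 to 0.0122 and adjusted ones from 0.0723 to 0.52, and the number of members at an unadjusted p under 0.05 lay between 1 and 4. Socs1 and Pim3 kept a positive sign under every alternative in both sets, and Socs1 ran from 0.36 (without control replicate 2) to 0.83 (without control replicate 4) with 8 libraries.

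With all 9 libraries Socs2, Cish and Pim2 turned negative with median-of-ratios scaling, at -0.15, -0.18 and -0.21, and with quantile normalization, at -0.13, -0.044 and -0.22. These scalings moved the median of all genes from 0.456 to 0.018 and -0.001, and gave Socs3 differences of 1.44 and 1.51. Leaving out each library gave -0.17 to 0.67 for Socs2, -0.34 to 0.66 for Cish, -0.40 to 0.57 for Pim2 and -0.19 to 0.14 for Pim1, with the sign of the first 3 changed by the omission of control replicate 1. With 8 libraries Pim1 turned to -0.034 with quantile normalization and -0.10 with the replicate block, and ran from -0.18 to 0.26 as libraries were left out. Socs5 turned to 0.017 with the block and ran from -0.27 to 0.0071.

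The number of genes called over the whole table was 2 with 9 libraries. It was 1 with a pseudocount of 5 and with quantile normalization, 0 with no filter, with a filter of 5 TPM and with the replicate block, and 0 to 3 as libraries were left out. With 8 libraries it was 3, and 5 with a pseudocount of 0.1, 1 with no filter, 0 with the block, and 1 to 15 as libraries were left out. The causes were not tested. Deviations of same-numbered libraries from their group means had correlations of -0.137 to -0.017 over 9 libraries and -0.207 to -0.018 over 8. Libraries with unlike numbers ran from -0.19 to 0.195 and from -0.221 to 0.238. Such deviations cancel within a group and few pairs share a number. The check therefore cannot decide whether the numbers pair the samples. Control replicate 5, and with 8 libraries also knockout replicate 1, have no partner and add nothing to the blocked differences. Read depth is unknown.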
